A study of Mus musculus with 11 samples.

Results

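Epithelial genes that mark the surface of the eye and its glands, Elf5, Trp63, Krt5, Krt14, Krt15, Krt12, Krt13, Alox12e and Gp2, were followed through 11 RNA-seq libraries of mouse eyes from which lens and cornea had been taken off. The 9 genes, of 38393 in the deposited files, were chosen by their measured CPM and FPKM in these same libraries, as a reading of surface epithelium left on the dissected eye. The libraries came from 5 wild-type (WT) and 6 miR-211-/- (KO) mice on the C57BL/6 background, aged 1 to 2 months, and the tissue kept was retina, retinal pigment epithelium, choroid, sclera and ciliary body. The KO line lacks the precursor of miR-211 in every cell from the germline on, so that no cell type was targeted. The KO animals were all male and the WT animals of both sexes, so that sex and genotype cannot be fully told apart. The labels do not say which WT library came from which sex, and levels of Xist are given below. Because the 9 genes were chosen by their levels, these are given by genotype and by library series as a description, without a test. Tests between groups are given for 118 other epithelial and ocular surface genes, named below as reference genes, and for markers of other tissues.

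The surface of the eye is covered by stratified epithelia that renew from basal cells. Basal cells of such epithelia hold the transcription factor p63 (Trp63) and the keratin pair Krt5 and Krt14, and Krt15 is a further basal keratin found in limbus and conjunctiva. Cells of the corneal epithelium make Krt12, the keratin by which corneal fate is usually recognised, whereas Krt13 belongs to the conjunctival and other non-cornified stratified epithelia. Elf5 is an ETS transcription factor of epithelial and glandular cells, Alox12e is an epidermal-type lipoxygenase, and Gp2 is a glycoprotein of secretory cells and of the M cells that overlie mucosal lymphoid tissue.

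Sequences are shown for the microRNA that the KO line lacks and for the promoters of the 4 genes on which the differences between libraries turn most: Krt5 and Krt12, whose usual proportion broke in a single library, Elf5, which was highest in one KO library, and Gp2, which was highest in one WT library. The mature microRNA (RefSeq, GRCm38.p6, chr7:64205831-64205852, plus strand) has its seed, bases 2 to 8, in capitals.
mmu-miR-211-5p: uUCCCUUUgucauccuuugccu

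The promoter sequences run from 250 to 21 bases upstream of the annotated start, 5′ to 3′ along the gene (RefSeq, GRCm38.p6). Capitals mark TATAAA and CACCC, the latter a core recognised by Krüppel-like factors, on either strand, with GGGTG as the reverse of CACCC. The Krt5 stretch lies at chr15:101712926-101713155 on the minus strand, that of Krt12 at chr11:99422280-99422509 on the minus strand, that of Elf5 at chr2:103423818-103424047 on the plus strand, and that of Gp2 at chr7:119459293-119459522 on the minus strand. The Elf5 stretch belongs to the second of 2 annotated starts, and the window at the first held neither TATAAA nor CACCC.
Krt5: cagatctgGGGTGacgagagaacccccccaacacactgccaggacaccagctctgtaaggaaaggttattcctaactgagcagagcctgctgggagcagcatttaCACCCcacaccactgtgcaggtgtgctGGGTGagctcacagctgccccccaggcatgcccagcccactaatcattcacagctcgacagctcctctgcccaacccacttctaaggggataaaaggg
Krt12: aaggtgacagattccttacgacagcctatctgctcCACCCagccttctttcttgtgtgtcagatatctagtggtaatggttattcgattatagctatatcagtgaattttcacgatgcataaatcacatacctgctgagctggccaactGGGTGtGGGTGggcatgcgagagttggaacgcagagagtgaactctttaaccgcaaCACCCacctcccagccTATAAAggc
Elf5: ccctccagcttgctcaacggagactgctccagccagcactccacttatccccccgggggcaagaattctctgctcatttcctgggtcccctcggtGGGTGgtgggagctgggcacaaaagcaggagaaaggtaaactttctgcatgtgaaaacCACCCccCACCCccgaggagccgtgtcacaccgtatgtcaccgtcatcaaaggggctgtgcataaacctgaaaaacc
Gp2: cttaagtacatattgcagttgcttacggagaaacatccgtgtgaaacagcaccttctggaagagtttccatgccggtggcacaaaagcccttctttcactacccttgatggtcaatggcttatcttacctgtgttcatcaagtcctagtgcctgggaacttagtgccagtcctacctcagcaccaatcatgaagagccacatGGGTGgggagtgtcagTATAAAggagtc

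In the Krt12 stretch TATAAA stood at position −29, and in that of Gp2 at position −32. The table of promoters held a window, from 250 bases before to 50 after the start, for 7 of the 9 genes, with 9 windows in all, and none was found for Trp63 and Krt15. Some windows lie inside the annotated span of their gene, among them that of Krt14, at chr11:100205981-100206280. TATAAA was found in 2 of the 9 windows, against 13.6% of all 32851 mouse windows. CACCC was found in 8 of 9, against 57.5% of all. GGAAG, the core bound by ETS factors such as Elf5, was found in 4 of 9, against 71.4% of all. TGANTCA, the AP-1 motif, was found in 2 of 9, both of them Krt13 windows, against 7.81% of all. Both strands were searched, and a base could count toward more than 1 motif. A match is a description of letters and says nothing of binding.

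Of the 9 genes 4 are keratins of the type I cluster on chromosome 11 of GRCm38. Krt12 lies at chr11:99415666-99422259, Krt13 at chr11:100117327-100121566, Krt15 at chr11:100131758-100135928 and Krt14 at chr11:100203162-100207548, all on the minus strand. Alox12e lies on the same chromosome at chr11:70315610-70322628, minus strand. Krt5, of the type II cluster, lies at chr15:101707070-101712898 on the minus strand. Elf5 lies at chr2:103411688-103450989 and Trp63 at chr16:25683763-25892102, both on the plus strand, and Gp2 at chr7:119442537-119459285 on the minus strand. Values are for whole genes, exons only. The antisense transcript A830036E02Rik has an exon that covers the whole Krt12 promoter stretch printed above, and by counting without strand its reads cannot be told apart from those of Krt12 where both are exonic. Among all stretches of 50 bases in the transcripts of Krt5, 8.52% also occurred in another gene, most of them in Krt6a, and among those of Krt14 13.9%, most in Krt16, so that a share of their reads had to be divided by estimate. The same share was 0.64% for Krt15, 0.273% for Elf5 and 0 for the other 5 genes.

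Levels are given as CPM, read pairs relative to library sizes scaled by the TMM method, or, for comparison between genes, as the deposited FPKM, which is also corrected for gene length. Library totals ran from 20282241 to 36317673 assigned read pairs. The libraries fell into a pair of series, known from column names in the study's supplementary table, which carry either a mouse number (WT1, WT2, KO1, KO2 and KO3) or an age (WT3, WT4, WT5, KO4, KO5 and KO6). What else differed between the series, such as date, operator or dissection, is not given in the sources used here. Lens RNA was present in 3 libraries, where Cryaa was read at 38370 CPM in WT4, 11780 in KO3 and 1896 in KO6, against at most 30.7 in the other 8. In bulk RNA, fewer cells of a type and less RNA per cell cannot be told apart.

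Transcripts of all 9 genes but Gp2 were read in every library. Together the 9 genes took between 0.113% (95% Wilson interval 0.111 to 0.114, counting error only) of all counts in WT3 and 0.773% (0.77 to 0.776) in KO2. In order of median FPKM over the 11 libraries, Krt5 came first at 768, followed by Krt12 at 405, Krt15 at 227, Krt13 at 107, Krt14 at 41.2, Alox12e at 11.6, Trp63 at 7.68, Elf5 at 1.08 and Gp2 at 0.29. Krt5 lay above Krt12 in only 2 of the 11 libraries, so that their order by median was the reverse of that within most libraries. Alox12e lay above Trp63 in 6, so that these neighbours in the order did not separate. By contrast Krt15 lay above Krt13, Krt13 above Krt14, Krt14 above Alox12e and Trp63 above Elf5 in all 11. Krt12 ranked between 15 and 171 among all genes by FPKM in 10 libraries and 13088 in WT1.

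**Figure D1:**
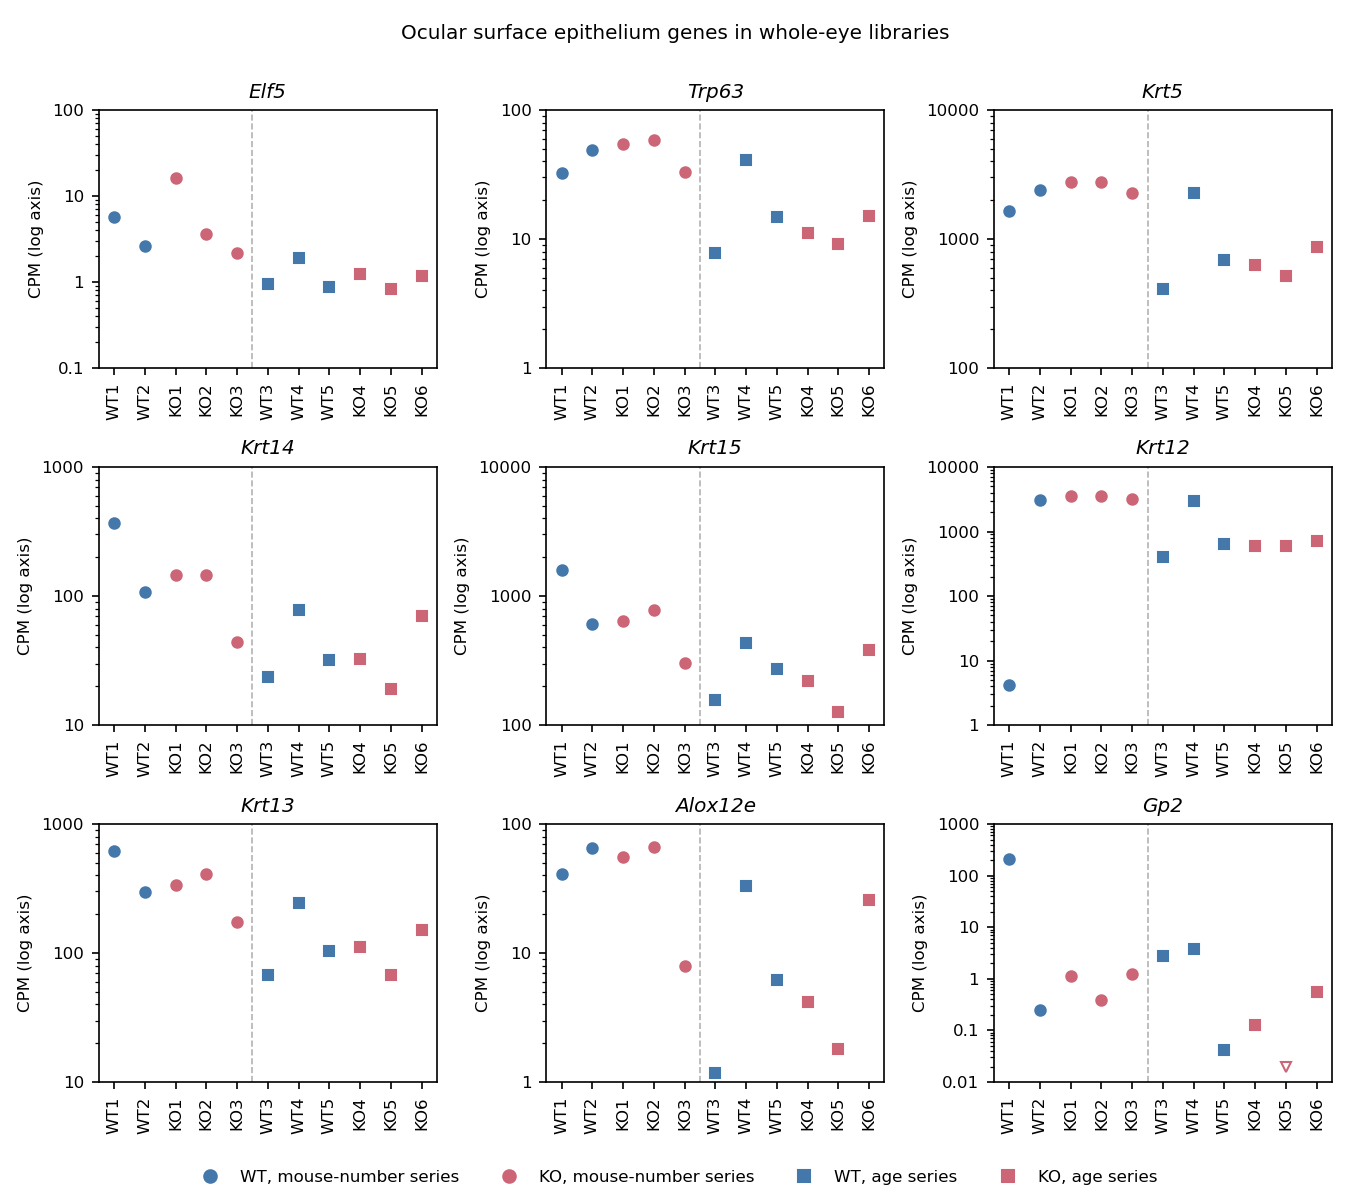
CPM of the 9 genes in each of the 11 libraries, 1 point per library on a log axis, with WT in blue and KO in red, circles for the mouse-number and squares for the age series, which the dashed line parts. An open triangle stands for a count of 0 and its height carries no value. WT4 sits with the mouse-number libraries for Trp63, Krt5 and Krt12, WT1 is lowest for Krt12 at 4.26 CPM and highest for Gp2 at 213 CPM, and KO1 is highest for Elf5 at 16.0 CPM.

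The basal cell genes followed each other closely. Trp63, the master regulator of stratified epithelia, was read in the mouse-number series at 32.4 (WT1), 48.6 (WT2), 54.1 (KO1), 58.0 (KO2) and 32.9 CPM (KO3). In the age series it stood at 7.86 (WT3), 41.1 (WT4), 14.8 (WT5), 11.1 (KO4), 9.08 (KO5) and 15.02 CPM (KO6). WT4 thus lay among the mouse-number libraries, and the other 5 age libraries lay below them all.

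Krt5 had nearly the same order at far higher levels. It was read at 1645 (WT1), 2389 (WT2), 2761 (KO1), 2744 (KO2) and 2274 CPM (KO3) in the mouse-number series. The age libraries had 413 (WT3), 2290 (WT4), 693 (WT5), 630 (KO4), 514 (KO5) and 870 CPM (KO6). WT4 again stood alone among them, and within it lens RNA was also the highest. The ratio of Trp63 to Krt5, both in FPKM, stayed between 0.00726 and 0.0109 in all 11 libraries, with a coefficient of variation of 11.3%, the steadiest of the ratios computed.

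Krt14, the usual partner of Krt5, followed another order. It was read at 371 CPM in WT1, 2.54 times the next library. In the rest of the mouse-number series it was read at 108 (WT2), 146 (KO1), 146 (KO2) and 43.7 CPM (KO3). In the age series the values were 23.7 (WT3), 78.5 (WT4), 32.0 (WT5), 32.4 (KO4), 18.99 (KO5) and 70.2 CPM (KO6). KO3 lay inside the range of the age libraries.

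Krt15 went with Krt14. It stood at 1591 CPM in WT1, at 609 (WT2), 636 (KO1), 778 (KO2) and 302 CPM (KO3) in the other mouse-number libraries, and at 157 (WT3), 434 (WT4), 273 (WT5), 220 (KO4), 126 (KO5) and 379 CPM (KO6) in the age libraries. The value of WT1 was 2.04 times that of KO2, the next highest.

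The corneal keratin Krt12 was among the most abundant transcripts of the tissue although the cornea had been removed. In the mouse-number series it was read at 3038 (WT2), 3514 (KO1), 3512 (KO2) and 3162 CPM (KO3), and in the age series at 406 (WT3), 2956 (WT4), 643 (WT5), 607 (KO4), 599 (KO5) and 710 CPM (KO6). WT1 held 4.26 CPM, from 120 read pairs, where every other library had at least 9393. The series overlapped through WT1, and WT4, at 2956 CPM, lay just below WT2, at 3038 CPM.

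The conjunctival keratin Krt13 was read at 622 (WT1), 299 (WT2), 338 (KO1), 409 (KO2) and 173 CPM (KO3) in the mouse-number series. It stood at 67.8 (WT3), 242 (WT4), 104 (WT5), 111 (KO4), 68.1 (KO5) and 151 CPM (KO6) in the age series. WT1 was highest for Krt13, Krt14, Krt15 and Gp2, 4 of the 9 genes. It was also the highest library for 30 of the 88 reference genes that were tested and for 21.4% of all 15767 genes.

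Set against Krt5, the keratins therefore gave WT1 a composition unlike that of the other 10 libraries. The FPKM ratio of Krt12 to Krt5 was 0.00307 in WT1 and between 0.97 and 1.65 elsewhere. That of Krt15 to Krt5 was 1.26 in WT1 and between 0.172 and 0.566 elsewhere, that of Krt13 to Krt5 0.506 against 0.102 to 0.236, and that of Krt14 to Krt5 0.293 against 0.025 to 0.105. KO3 held the lowest ratio of Krt13, Krt14, Krt15 and Trp63 to Krt5 and the highest of Krt12. Without WT1, Krt12 made up between 31.9% and 52.7% of the counts of the 9 genes, and in WT1 0.0941%.

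**Figure D2:**
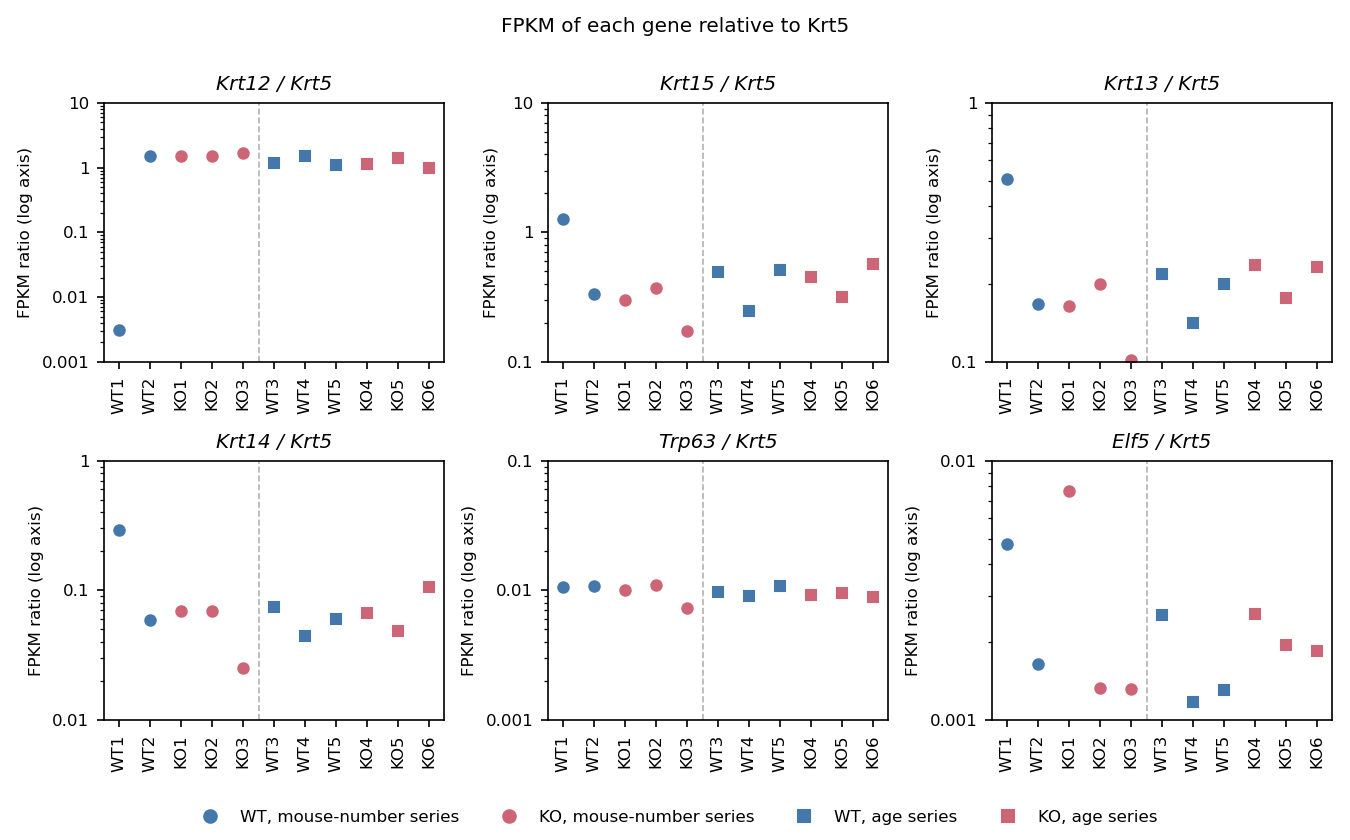
FPKM of 6 genes divided by the FPKM of Krt5 in each of the 11 libraries, 1 point per library on log axes, with colours and symbols as in the plot of CPM by library. Krt12 falls to 0.00307 in WT1 while Krt13, Krt14 and Krt15 are highest there, and the Trp63 ratio stays between 0.00726 and 0.0109.

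Elf5 was a low transcript, with 21 to 319 read pairs per library. In the mouse-number series it was read at 5.64 (WT1), 2.62 (WT2), 16.0 (KO1), 3.57 (KO2) and 2.16 CPM (KO3), and in the age series at 0.95 (WT3), 1.91 (WT4), 0.87 (WT5), 1.25 (KO4), 0.83 (KO5) and 1.17 CPM (KO6). It was the only one of the 9 genes whose series did not overlap, against 11.1% of all 15767 genes (4.9% with the mouse-number series the higher). The gap was narrow: the counting interval of KO3 (1.6 to 2.84 CPM, exact Poisson, 95%) held the value of WT4, and that of WT4 reached from 1.35 to 2.62 CPM. KO1 had 2.84 times the level of WT1, the next highest, and its interval of 14.3 to 17.9 CPM lay apart from that of WT1, 4.8 to 6.59 CPM. Such intervals cover counting error only.

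Leaving Krt12 and Gp2 aside, Alox12e had the largest ratio of highest to lowest CPM. It was read at 40.9 (WT1), 65.5 (WT2), 55.5 (KO1), 66.2 (KO2) and 7.94 CPM (KO3) in the mouse-number series. The age libraries had 1.17 (WT3), 33.3 (WT4), 6.22 (WT5), 4.19 (KO4), 1.81 (KO5) and 25.9 CPM (KO6). WT4 and KO6 lay above KO3. Relative to Krt5 in FPKM it spanned from 0.00253 (WT3) to 0.0279 (KO6), a range of 11-fold, where Trp63 spanned 1.5-fold.

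Gp2 was close to absent outside 1 library. WT1 held 213 CPM (5995 read pairs), 57.3 times the next value, which was 3.71 CPM in WT4. The remaining WT libraries had 0.25 (WT2), 2.76 (WT3) and 0.04 CPM (WT5). The KO libraries had 1.16 (KO1), 0.38 (KO2), 1.25 (KO3), 0.13 (KO4) and 0.54 CPM (KO6), and KO5 had 0 read pairs, which allows up to 0.123 CPM, taken as 3 read pairs of the unscaled library total. Only 5 libraries reached 1 CPM, the number that the expression filter asks for, so that Gp2 passed that filter by no margin, WT1 included.

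Between genotypes the levels of the 9 genes overlapped. The log2 difference KO minus WT was 0.79 (standard error 0.76) for Elf5, 0.05 (0.57) for Trp63, 0.14 (0.57) for Krt5, −0.69 (0.70) for Krt14, −0.59 (0.58) for Krt15, 0.52 (0.96) for Krt12, −0.36 (0.57) for Krt13 and −0.13 (0.93) for Alox12e. WT and KO ranges overlapped for all 9 genes, and over all 15767 genes they failed to overlap in 0.184%. With series in the fit the differences were 0.26 for Elf5, −0.37 for Trp63, −0.27 for Krt5 and −0.14 for Krt12, so that the sign turned for the last 3. Single libraries also set the sign for several genes. Without KO1 the difference of Elf5 was −0.41 and without WT1 1.39. Without WT1 the differences became 0.33 for Krt14, 0.14 for Krt15 and 0.23 for Krt13.

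Gp2 had a difference of −6.24 (1.46), the size of which rested on WT1. The mean over WT was 43.9 ± 94.4 CPM (SD, n = 5) and 1.69 ± 1.83 CPM (SD, n = 4) without WT1, beside 0.578 ± 0.522 CPM (SD, n = 6) in KO. Without WT1 it no longer passed the filter.

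The genotypes were also compared within each series, in fits that kept genes with at least 1 count in any library. In the mouse-number series, with 2 WT and 3 KO libraries, KO minus WT was 0.81 (0.85) for Elf5, 0.37 (0.30) for Krt5, 1.16 (1.51) for Krt12 and −1.09 (0.67) for Krt14. In the age series, with 3 of each, it was −0.17 (0.41) for Elf5, −0.73 (0.61) for Krt5, −1.04 (0.68) for Krt12 and −0.12 (0.57) for Krt14. Gp2 stood at −6.83 (1.57) in the mouse-number and at −3.22 (1.41) in the age series. With 2 WT libraries in the mouse-number series, several differences there leaned on WT1. For Gp2 WT1 held 213 CPM, while WT2, at 0.25 CPM, lay below the KO libraries of that series (0.38 to 1.25 CPM). For Krt12 WT1 held 4.26 CPM, beside 3038 CPM in WT2 and 3162 to 3514 CPM in KO. For Krt14 it held 371 CPM, beside 108 CPM in WT2 and 43.7 to 146 CPM in KO.

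Between series the same genes, all but Gp2, were further apart than between genotypes. The log2 difference, mouse-number minus age with genotype in the fit, was 2.30 (standard error 0.51) for Elf5, 1.56 (0.40) for Trp63, 1.47 (0.43) for Krt5, 1.90 (0.49) for Krt14, 1.55 (0.41) for Krt15, 1.48 (0.93) for Krt12, 1.59 (0.37) for Krt13, 2.00 (0.80) for Alox12e and 3.74 (1.26) for Gp2. Means of Krt5 were 2362 ± 455 CPM (SD, n = 5) in the mouse-number and 902 ± 698 CPM (SD, n = 6) in the age series, and 624 ± 175 CPM (SD, n = 5) in the latter without WT4. For Krt12 the means were 2646 ± 1492 CPM (SD, n = 5) and 987 ± 970 CPM (SD, n = 6), the latter 593 ± 113 CPM (SD, n = 5) without WT4. For Elf5 they were 6.00 ± 5.76 CPM (SD, n = 5), or 3.499 ± 1.55 CPM (SD, n = 4) without KO1, and 1.16 ± 0.401 CPM (SD, n = 6). The age mean of Alox12e, 12.1 ± 13.9 CPM (SD, n = 6), was 7.86 ± 10.3 CPM (SD, n = 5) without WT4. For Gp2 WT1 set the direction, since the mouse-number mean of 43.1 ± 94.8 CPM (SD, n = 5) was 0.759 ± 0.517 CPM (SD, n = 4) without it, below the 1.199 ± 1.62 CPM (SD, n = 6) of the age series.

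The reference genes, which did not enter the choice of the 9, were tested for the same contrasts with edgeR's likelihood-ratio test, adjusted over all genes. Their lists were also made with earlier results of these data known. Of 118 listed genes 116 were found by symbol and 88 passed the filter of at least 1 CPM in at least 5 libraries. Between genotypes 0 of the 88 had an adjusted p under 0.1, against 1 of 15767 genes (0.00634%). Their median log2 difference was −0.03, beside 0.00 over all genes. It ranged from −0.23 to 0.11 with each library left out, and was −0.34 with series as a covariate, again with none called. An unadjusted p under 0.05 was reached by 4 of the 88 with the likelihood-ratio and with the quasi-likelihood test and by 1 with DESeq2, and neither alternative called any. The 4, none of which passed the adjustment, were Krt17 (KO minus WT −2.57), Lcn2 (−2.43), Cldn1 (−0.30) and Scd3 (3.17). Krt17, Lcn2 and Cldn1 were highest in WT1 and Scd3 in KO1. The gene called was Xist, the transcript of the inactive X chromosome of females, named here after its values were seen. It was read at 1250 (WT1), 796 (WT3) and 1640 CPM (WT5) and at 0.451 to 1.29 CPM in the other 8 libraries. By these levels WT1, WT3 and WT5 came from females and WT2 and WT4 from males, so that the gene called also differed within WT.

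Between series 69 of the 88 reference genes were called, 68 of them higher in the mouse-number series and 1 lower, against 36.3% of all genes called and 21.7% called higher. Their median log2 difference was 1.37, beside 0.00 over all genes. The quasi-likelihood test and DESeq2 each called 67. The libraries of the series failed to overlap for 4 of the 88, no larger a share than the 11.1% of all genes.

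Among epithelial transcription factors 13 of 14 were called (median log2 difference of the list 1.36). Elf3, an ETS factor related to Elf5, was at 94.8 ± 19.1 CPM (SD, n = 5) in the mouse-number and 35.3 ± 26.1 CPM (SD, n = 6) in the age series (log2 difference 1.51, standard error 0.37, adjusted p = 0.00076). Ehf, another of that family, differed by 1.59 (0.39, adjusted p = 0.00122) and Klf4, which drives epithelial differentiation, by 1.33 (0.34, adjusted p = 0.00187). Tfap2a was the gene that was lower, with −0.28 (0.09, adjusted p = 0.0159), and Bnc1 was not called (0.88, adjusted p = 0.291).

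Genes of the basal layer and its anchorage were called in 11 of 12 (median 1.35). Krt6a, a keratin of activated and mucosal epithelia, stood at 780 ± 188 against 265 ± 197 CPM (n = 5 and 6, SD), a difference of 1.65 (0.40, adjusted p = 0.000928). Sfn, the 14-3-3 sigma protein of epithelial cells, differed by 1.51 (0.35, adjusted p = 0.000376). Col17a1, the hemidesmosomal collagen, differed by 1.203 (0.50, adjusted p = 0.075), and the quasi-likelihood test gave it 0.114. Krt17 stood at 253 CPM in WT1 and at 2.08 to 19.3 CPM elsewhere.

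Desmosome and suprabasal genes were called in 14 of 15 (median 1.38). Perp, a desmosomal membrane protein, was at 281 ± 54.8 against 106 ± 77.3 CPM (SD, n = 5 and 6; difference 1.497, standard error 0.38, adjusted p = 0.00176). Krt4, the partner of Krt13 in mucosal epithelia, differed by 1.65 (0.48, adjusted p = 0.00417), and Jup, plakoglobin, by 0.69 (0.27, adjusted p = 0.0429). Krt10, of cornifying skin, was not called (0.17, adjusted p = 0.402).

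Of the junction genes and simple keratins 15 of 17 were called (median 1.54). Krt19, a keratin of simple and mucosal epithelia, differed by 1.70 (0.53, adjusted p = 0.00821). Krt18, a simple keratin also made outside stratified epithelia, had 0.05 (0.13, adjusted p = 0.808), and Cldn1 0.18 (0.14, adjusted p = 0.357).

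Of the corneal epithelium list 3 of 6 were called (median 1.38). Psca differed by 1.31 (0.50, adjusted p = 0.0483). Aldh3a1, an abundant aldehyde dehydrogenase of the corneal epithelium, had 1.24 (0.61, adjusted p = 0.146) and Tkt, transketolase, 0.63 (0.34, adjusted p = 0.17). Aldh3a1 was read at 174 CPM in WT1 and at 1661 to 1776 CPM in the other 4 mouse-number libraries. Slurp1, a secreted protein of the corneal epithelium, was at 0.18 CPM in WT1 and at 78.6 to 89.9 CPM in those 4.

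Conjunctival and mucin genes were called in 6 of 7 (median 1.52). Muc4, a membrane mucin of the ocular surface, differed by 1.64 (0.36, adjusted p = 0.000209), Muc20 by 1.52 (0.32, adjusted p = 0.000148) and the water channel Aqp5 by 1.29 (0.57, adjusted p = 0.0969), the last with 0.137 in the quasi-likelihood test. Muc5ac, the secreted mucin of goblet cells, failed the filter and was read at 327 CPM in WT1 and at 0 to 4.45 CPM elsewhere.

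The remaining lists were more mixed. Of the gland genes 2 of 3 were called, with Ltf, lactoferrin, at 2.71 (0.64, adjusted p = 0.000755), Lcn2 at 1.76 (0.67, adjusted p = 0.0579) and Amy1, amylase, at −0.02 (0.11, adjusted p = 0.927). Ltf and Lcn2 were highest in WT1, at 52.8 and 80.1 CPM. For Lcn2 the other mouse-number libraries, at 2.89 to 5.66 CPM, overlapped the age libraries, at 2.40 to 4.535 CPM. The gland markers Pip and Dcpp1 were at 0 in all libraries. Of the other lipoxygenases 1 of 5 was called, Alox12 at 1.52 (0.39, adjusted p = 0.00158), while Alox15 had 0.80 (0.84, adjusted p = 0.513) and Aloxe3 −0.20 (0.16, adjusted p = 0.366). Of corneal stroma and endothelium 3 of 7 were called, among them Lum at 1.03 (0.25, adjusted p = 0.000932) and Dcn at 0.77 (0.29, adjusted p = 0.0421), both proteoglycans of connective tissue, whereas Aldh1a1 had 0.24 (0.28, adjusted p = 0.545). Of the eyelid list 1 of 2 was called.

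**Figure D3:**
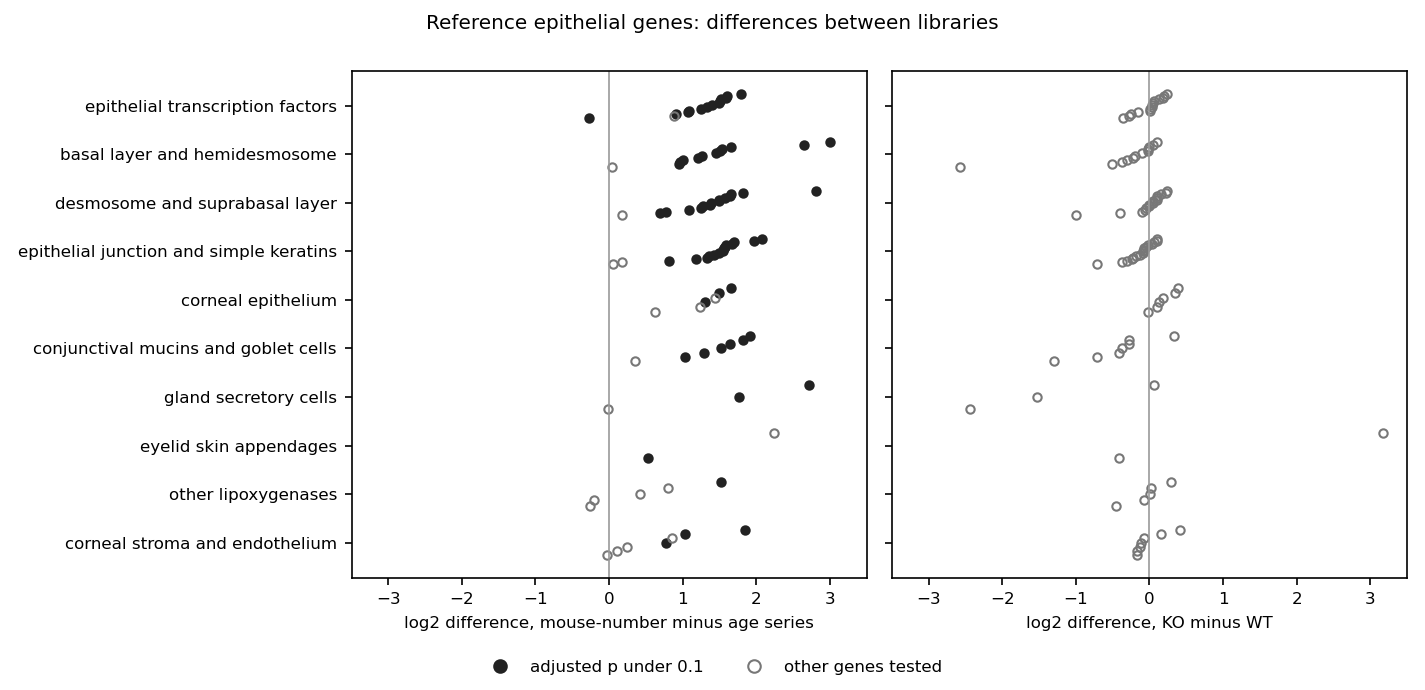
Log2 difference of each reference gene tested, by list, between the series on the left and between the genotypes on the right, 1 point per gene, filled where the adjusted p was under 0.1. On the left 68 filled points lie above 0 and 1, Tfap2a, below. On the right none is filled.

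Markers of other tissues attached to the eyeball moved with the series as well. Of 8 skeletal muscle markers 8 were called higher in the mouse-number series by the likelihood-ratio test, against 21.7% of all genes, and 7 by the quasi-likelihood test, which lost Myh13 (adjusted p = 0.123). Their summed level ran from 1481 to 6971 CPM there and from 587 to 3941 CPM in the age series. Of 6 adipocyte markers tested 6 were called higher, with sums of 12.9 to 426 CPM against 11.9 to 122 CPM, and of 5 leukocyte markers 4, with sums of 126 to 304 CPM against 51.5 to 143 CPM. None of 7 rod, 6 lens and 6 retinal pigment epithelium markers was called. The part of these tissues in the differences between series was not tested. Within the age series WT4, which held the highest sum of epithelial transcription factors (463 CPM), also held the highest sums of muscle (3941 CPM), adipocyte (122 CPM) and leukocyte markers (143 CPM).

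Over the 11 libraries Trp63 and Krt5 were closest to each other, and so were Krt13, Krt14 and Krt15. Pearson's r of log2 CPM was 0.989 between Trp63 and Krt5, and 0.977 to 0.989 among the other 3 keratins. Krt12 had r of 0.33 with Krt5 and −0.28 with both Krt14 and Krt15. With WT1 left out these became 0.99, 0.82 and 0.83, so that the low values rested on that library. Elf5 had r between 0.722 and 0.82 with the 6 genes other than Krt12 and Gp2, 0.472 with Gp2, and 0.00 with Krt12, which became 0.771 without WT1. Gp2 stayed at or below 0.36 with all 8 others once WT1 was left out. These values describe libraries that share their depth, their scaling and their series, and they carry no test.

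**Figure D4:**
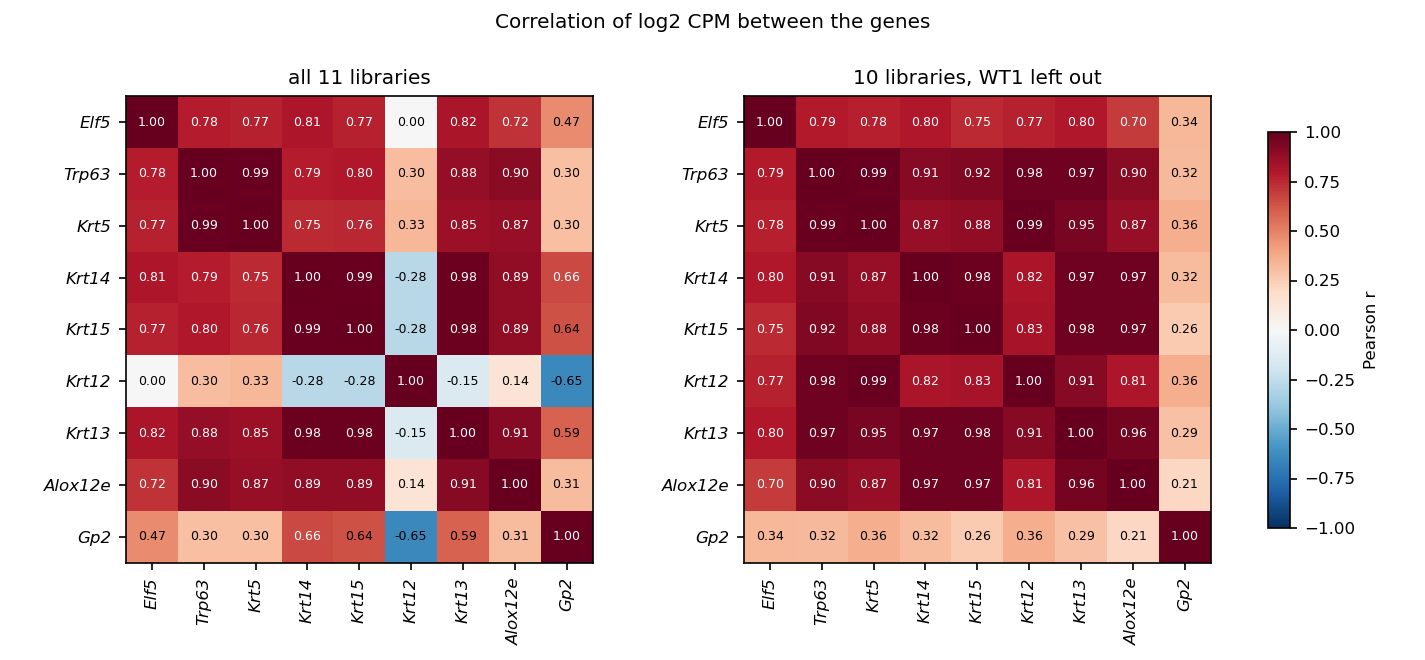
Pearson's r of log2 CPM between each pair of the 9 genes, over all 11 libraries on the left and over 10 libraries without WT1 on the right, from −1 in blue to 1 in red. The row of Krt12 turns from −0.65 to 0.33 on the left to 0.36 to 0.99 on the right.

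Among all genes that passed the filter, those whose log2 CPM was most like Krt5 over the 11 libraries included Anxa8, Lypd3, Calml3 and Sytl1, each with r of 0.996. Those most like Krt12 were Lypd2 (0.997), Slurp1 (0.995), the antisense A830036E02Rik (0.965), Fam83a (0.955) and Usp46 (0.954). Of these 5, Lypd2, Slurp1, A830036E02Rik and Fam83a were also low in WT1, at 0.46, 0.18, 2.80 and 2.02 CPM. Usp46 was lowest there too, at 34.1 CPM beside 42.5 to 49.9 CPM elsewhere, and fell to r of 0.779 without that library. Reads of A830036E02Rik cannot be told apart from those of Krt12 where both are exonic.

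For Elf5 the 10 most alike were Lpcat3 (0.973), 2810004N23Rik (0.965), Sptlc1 (0.952), Ermp1 (0.952), Pank1 (0.95), Tmem14c (0.947), Ugdh (0.94), Psapl1 (0.94), Panct2 (0.934) and Mad2l1bp (0.934). Without KO1 their r was 0.86 to 0.965, and 0 of the 10 were among the 10 most alike over the other 10 libraries, which had r of 0.973 to 0.987. Psapl1, a prosaposin-like gene, stood at 122 CPM in KO1, at 12.7 in WT1 and at 2.91 to 15.2 in the rest.

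KO1 was also the highest library for 3 lipid genes of the eyelid list, which were among the most abundant of that list through their levels in KO1. Scd3, a fatty acid desaturase, was at 145 CPM in KO1 and at 2.55 to 4.56 CPM in the other 10 libraries. Elovl3, a fatty acid elongase, was at 37.2 CPM in KO1 and at 0 to 1.30 CPM elsewhere, and Dgat2l6, an acyltransferase, at 38.1 CPM and at 0 to 0.17 CPM elsewhere. The wax synthase genes Awat1 and Awat2 of the same list were not high in KO1, with 0 and 0.70 CPM, beside 0.62 to 1.30 CPM of Awat2 elsewhere. Krt16, a keratin of activated epithelia, was at 24.4 CPM in KO1, 28.3 CPM in WT1 and 0.59 to 4.84 CPM in the other 9. In KO1 Krt5, Krt12 and Trp63 stood at 2761, 3514 and 54.1 CPM, close to KO2 with 2744, 3512 and 58.0 CPM. The hair and inner root sheath keratin Krt71 stayed at 0.22 CPM or less in every library. 

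**Figure D5:**
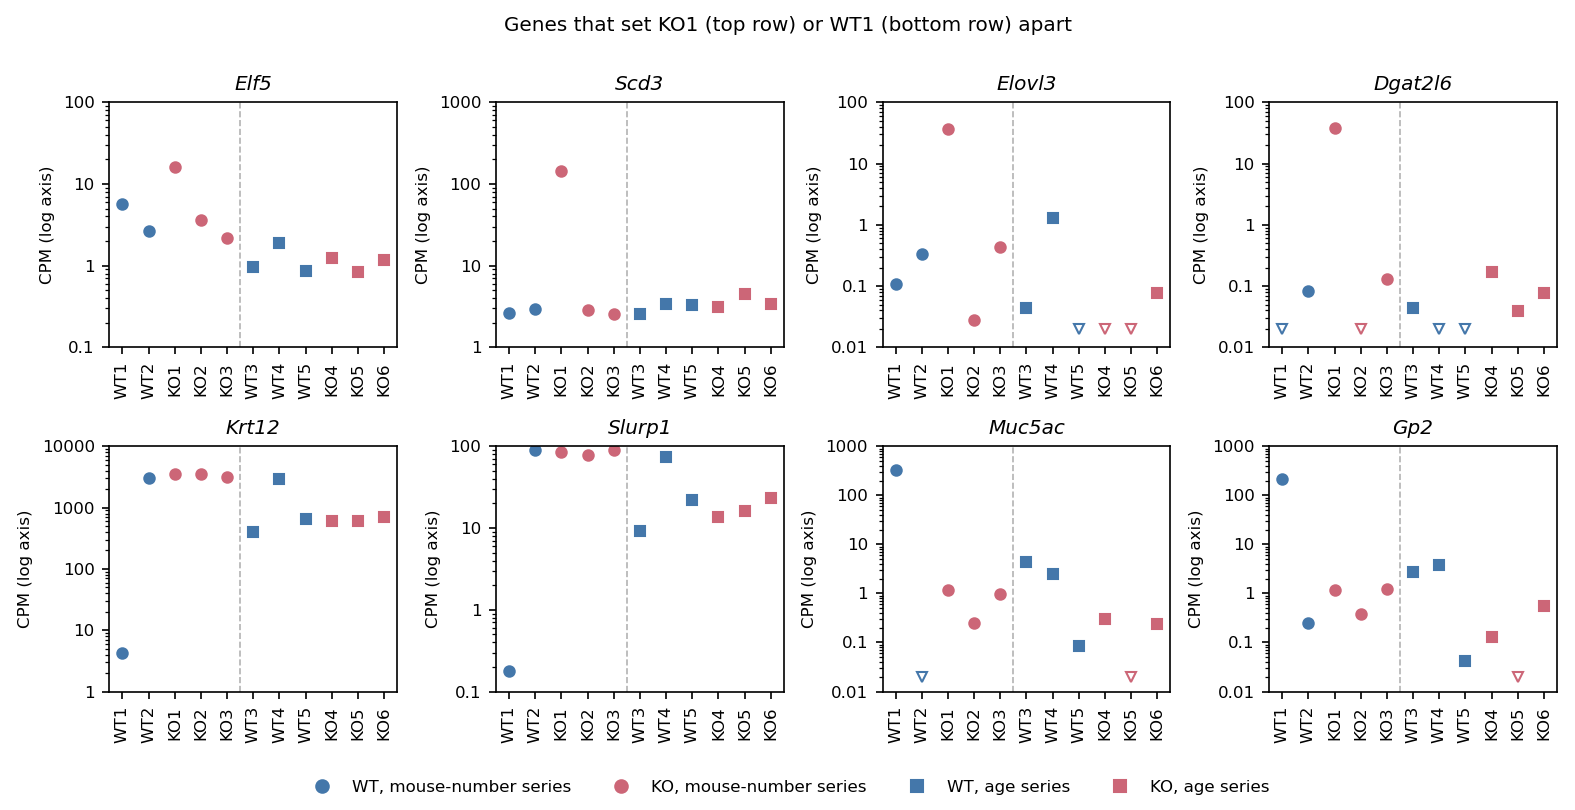
CPM of 4 genes that were highest in KO1 (top) and of 4 that set WT1 apart (bottom) in each of the 11 libraries, on log axes, with colours and symbols as in the plot of CPM by library and open triangles for counts of 0. Elf5, Scd3, Elovl3 and Dgat2l6 peak in KO1, and in WT1 Krt12 and Slurp1 are lowest while Muc5ac and Gp2 are highest.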

How the data were processed

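RNA of whole eyes without lens and cornea was read in 100-nt pairs in 11 libraries, 5 WT and 6 KO. The authors assigned the reads to Gencode mouse release M4 genes with RSEM 1.2.19, and the expected counts they deposited are not scaled. FPKM, which the authors deposited beside them, was scaled by RSEM for effective gene length and mapped fragments. FPKM served for levels and ratios between genes and for no test. Genotype and replicate number came from the labels. RSEM ran with its standard parameters, by which reads are assigned without strand.

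Expected counts were rounded, and the 15767 genes that reached 1 CPM in 5 or more of the 11 libraries were scaled with TMM. Negative binomial models were then fitted (glmFit and glmLRT of edgeR 4.0.16, R 4.3.3) with genotype alone or, for the series, with genotype and series. Adjustment was by Benjamini-Hochberg over all genes, threshold 0.1. Standard errors came from the Fisher information of the fit. Log2 CPM used a prior count of 2. At the lowest total 3 counts are 0.148 CPM. The test was run on simulated counts in which 200 genes were changed by a log2 of 2. For either contrast all 200 were recovered, with 19 false calls. The simulation had a single dispersion for all genes and no other difference between libraries but depth. It was thus simpler than these data and does not show how the test does on them. Each library was matched to a column of the study's supplementary table by proportional counts over 63 genes, where the coefficient of variation was at most 0.193% for the matched and at least 24.5% for the next column. Fold changes and p-values in that table were not used. Symbols and positions came from Gencode M21 on GRCm38. The p-values measure the spread between these libraries.

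The 9 genes and the reference lists were chosen with earlier results of these data known. Beside the 9 genes, the rule for naming genes took in each reference list the 3 genes with the highest mean FPKM and those called, of which examples are given, the genes whose log2 CPM was most like that of Elf5 (10), Krt5 and Krt12 (5 each), and marker lists as sums. Outside the rule, Bnc1, Krt10, Cldn1, Slurp1, Muc5ac, Krt71, Pip, Dcpp1 and Cryaa were chosen after their values were seen. Some genes that the rule took are not reported here. As alternatives, DESeq2 1.42.0 and the quasi-likelihood test of edgeR were run, and fits with no TMM factors, at least 1 count in any library, an adjusted p under 0.05, a replicate block, series as a covariate, no genotype term, log2 of FPKM with 0.1 added, each library left out in turn and, added after seeing the data, the 3 libraries with lens RNA left out.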

Additional observations from a re-analysis of the deposited data

Results flagged for a closer look

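One value stood apart within its group of libraries. The FPKM ratio of Krt12 to Krt5 was 0.00307 in WT1, far below the other 4 WT libraries, which had 1.51 (WT2), 1.17 (WT3), 1.53 (WT4) and 1.10 (WT5). The gap took 0.947 of the range of log2 ratios in WT. Of 20 groups looked at in this way 1 was marked, the number that chance alone gives, and the ratio is of genes chosen on these libraries, so that this is a description and no test. In the same library Krt5 (1645 CPM) and Trp63 (32.4 CPM) lay within the range of the others, while Krt15 (1591 CPM), Krt13 (622 CPM), Muc5ac (327 CPM) and Gp2 (213 CPM) were at their highest.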

How the results depend on the processing

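The number of genes called between genotypes, 1 in the fit reported, was 0 with the quasi-likelihood test, 2 with DESeq2, 2 with the filter of at least 1 count in any library, 10 with the replicate block, which leaves out KO replicate 6, and 10 with series as a covariate, and it ranged from 1 to 11 with each library left out, 11 without KO replicate 1 and 2 without WT replicate 2. The cause was not tested. No reference gene was called between genotypes in any of these fits, nor without the 3 libraries with lens RNA. Same-numbered WT and KO libraries had correlations of deviations between −0.332 and 0.633. WT1 and KO1, WT2 and KO2, WT4 and KO4, and WT5 and KO5 each share a series, and WT3 and KO3 do not. Whether the numbers mark a pairing beyond the series was not tested. Between series, 4333 to 7209 genes and 61 to 75 reference genes were called over all alternatives. For the 9 genes 165 differences were recomputed, of which 163 stayed within 1 SD of the one reported, a wide margin within which the sign turned for every gene but Gp2, and 2, both of Gp2, moved, to as little as −2.27. Gp2 gave no value in the leave-one-out fits where it failed the filter. Elf5 and Gp2 rest on the fewest counts, with a median of 38 read pairs per library for Elf5 and 14 for Gp2.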
